A study of Rattus norvegicus with 6 samples.

Results

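Cadherins are calcium-dependent adhesion molecules of the cell surface, and protocadherins are their largest group of relatives. All gene symbols that begin with Cdh followed by a number, or with Pcdh, were taken from transcript tables of rat Schwann cell precursors (SCPs) and repair Schwann cells (RSCs), leaving out Cdh5 and Cdh15, which serve here as markers of endothelial and muscle cells. This gave 82 genes, 21 cadherins and 61 protocadherins, of 29468 gene symbols in the tables. Of the protocadherins, 49 belong to the α (15 genes), β (18) and γ (16) clusters and 12 lie outside them.

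RNA was sequenced from 3 preparations of each cell, 6 samples in all, so that cells of the embryonic nerve could be compared with those of the injured adult nerve. The labels give all rats as wild type and of the LEWIS strain. The study's methods say that cells for grafting came from LEWIS rats with a transgene for a red fluorescent protein, and do not say plainly whether the cells for RNA did as well. SCPs came from untreated embryos at embryonic day 14, from the sciatic nerves of both sides and the brachial plexus, and RSCs came from the part of the cut sciatic nerve distal to the transection, in 10-week-old rats 1 week after the cut. For cells of both kinds the study's methods describe enzymatic dissociation and a brief plating, from which the unattached cells were kept, with no sort. Macrophages and fibroblasts were the stated targets of the plating. By immunolabeling of cultured cells, the study found the Schwann cell marker Sox10 in most cells of both kinds. The number of animals behind a preparation is not given in the sources used here, and embryonic against adult age, tissue and injury cannot be told apart as the source of a difference.

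Levels are in FPKM, fragments per kilobase of transcript and scaled to the mapped fragments of the library, so that they can be set side by side between genes. The tables hold no read counts and the absolute depth is unknown. Relative depth, read from the ratio of coverage to FPKM and set to 1 in SCP 2, was 0.93 in SCP 1, 0.88 in SCP 3 and 0.79 to 0.84 in the RSC samples. Genes whose mean reached 1 FPKM were compared between groups with limma on log2(FPKM + 1), RSC minus SCP, and a gene was called at an unadjusted p under 0.01. Adding 1 understates the change of low genes, and all adjusted p-values below are limma's with Benjamini-Hochberg adjustment over all tested genes. In such bulk samples, fewer cells of a type and less RNA per cell cannot be told apart.

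Classical cadherins bind the same or a related cadherin on the neighbouring cell and are tied to actin inside the cell by β-catenin and α-catenin. N-cadherin, the product of Cdh2, is the main cadherin of neural and mesenchymal cells and joins Schwann cell precursors to each other and to axons, while E-cadherin, the product of Cdh1, is found in epithelia and at the autotypic junctions of myelinating Schwann cells. Switches between cadherins accompany the emigration of the neural crest, from which the Schwann cell lineage derives. Clustered protocadherins are chosen promoter by promoter within a single locus, and each cell's combination serves in self-recognition, best known in neurons.

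Of the 82 genes, 22 were listed at 0 in all 6 samples, all of them clustered protocadherins, 38 were above 0 but below the filter, and 22 were tested. Among the 7 tested cadherins, 3 fell in RSCs (Cdh2, Cdh3 and Cdh4) and 1 rose (Cdh13). Among the 15 tested protocadherins, 2 fell (Pcdh18 and Pcdhgc3) and 1 rose (Pcdh20). In the whole table of 13003 tested genes 40.5% were called, 22.4% higher in SCPs and 18.1% higher in RSCs, so 3 of 15 protocadherins is a smaller share than that of all genes, and 4 of 7 cadherins a larger share, over few genes. With the further requirement of a fold change over 4, 4 of the 22 tested genes were higher in SCPs (Cdh2, Cdh3, Cdh4 and Pcdh18), against 3.78% of all tested genes, and 2 were higher in RSCs (Cdh13 and Pcdh20), against 7.81%. The median log2 fold change of the 22 was -0.09, beside -0.17 for all tested genes.

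**Figure D1:**
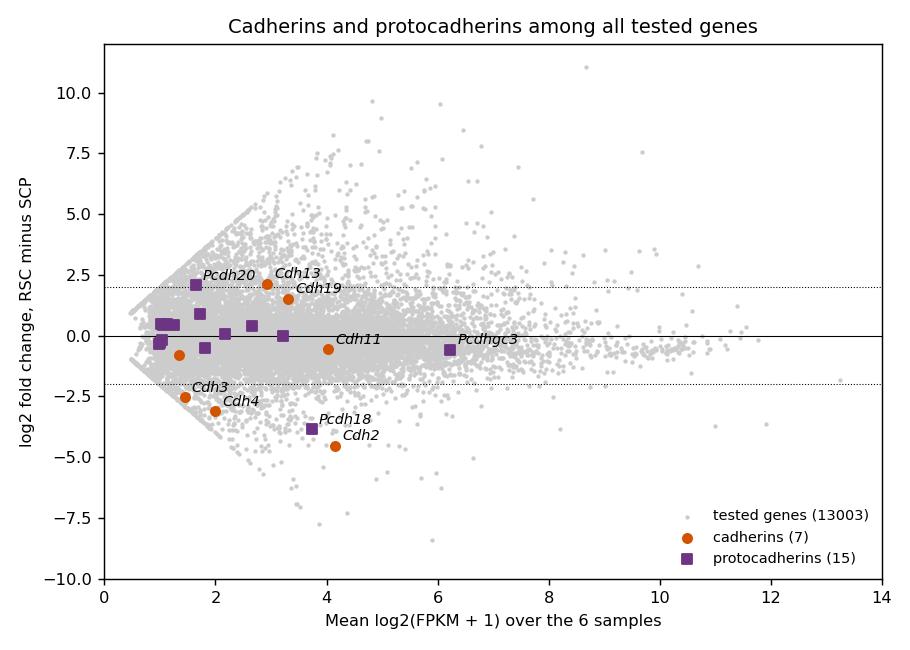
Each point is a tested gene, with its mean log2(FPKM + 1) over the 6 samples on the x axis and its log2 fold change, RSC minus SCP, on the y axis; dotted lines mark 4-fold. Cdh2 and Pcdh18 lie far below the bulk of the genes at their level, while Cdh13 and Pcdh20 lie just above the upper line.

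All 3 type I classical cadherins that passed the filter fell in RSCs. Cdh2 had 94.0, 82.2 and 77.1 FPKM in SCPs and 3.45, 2.32 and 2.46 FPKM in RSCs. The lowest SCP sample was far above the highest RSC sample, the means of 84.4 ± 8.68 and 2.75 ± 0.618 FPKM (SD, n = 3 each) differed 30.7-fold, and the log2 fold change was -4.52 ± 0.16 (SE; adjusted p = 2.5e-05). Cdh2 lies at chr18:8146971-8366037 on rn6.

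Cdh4, which encodes R-cadherin, had 12.3, 11.3 and 8.85 FPKM in SCPs and 0.312, 0.532 and 0.226 FPKM in RSCs. It fell by 3.12 on the log2 scale (SE 0.22, adjusted p = 0.000159), with no overlap between groups. Cdh3, which encodes P-cadherin, had 5.55, 8.44 and 3.54 FPKM in SCPs, and in RSCs it was listed at 0.352, 0 and 0.0679 FPKM. It fell by 2.53 (SE 0.33, adjusted p = 0.00169), and relative to their mean the SCP samples spread more among themselves than for Cdh2 or Cdh4.

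Cdh1 ran the other way at a low level. It had 0.573, 0.690 and 0.474 FPKM in SCPs and 1.69, 1.09 and 1.01 FPKM in RSCs, which was below the filter, so it was not tested in the main comparison. The groups did not overlap, and without the filter it was not called. Summed over the 4 type I genes, the level was 112, 103 and 89.9 FPKM in SCPs and 5.81, 3.94 and 3.76 FPKM in RSCs. Cdh2 remained above Cdh1 in every RSC sample, at 2.46 against 1.01 FPKM in RSC 3.

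**Figure D2:**
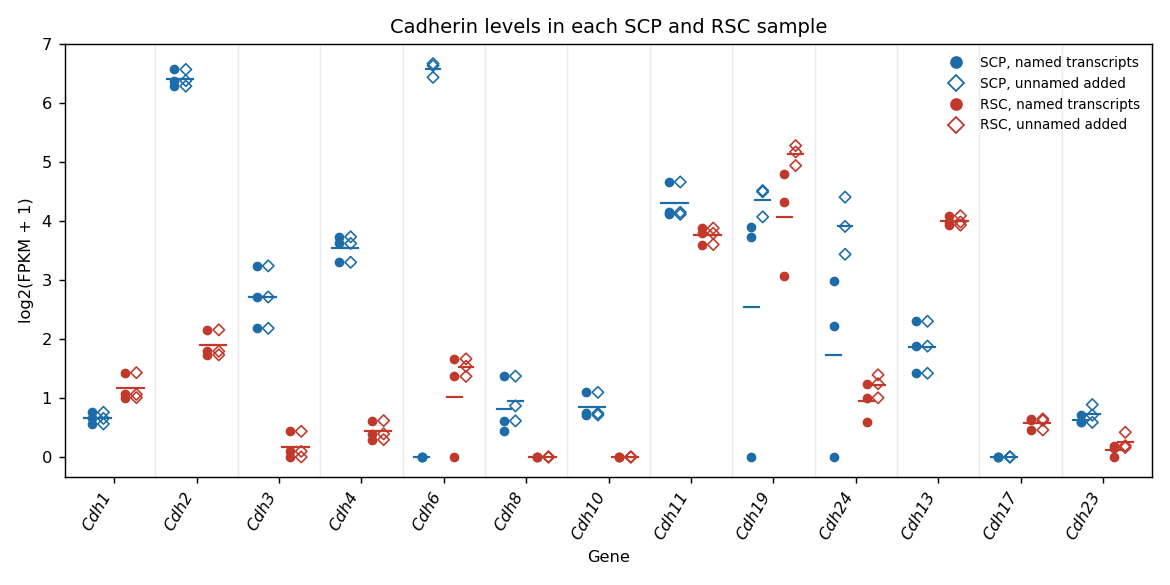
Levels of 13 cadherins as log2(FPKM + 1) in each of the 3 SCP (blue) and 3 RSC (red) samples, from named transcripts alone (filled circles) and with unnamed transcripts of the same locus added (open diamonds); short lines are group means. Cdh2, Cdh3 and Cdh4 are higher in all SCP samples and Cdh13 in all RSC samples, and for Cdh6, Cdh19 and Cdh24 the circles and diamonds part.

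For 5 cadherins and 8 protocadherins, part of the expression stood in transcripts without a gene name, which Cufflinks had assembled from the reads of a single sample at the same locus. Counting these transcripts with the gene they overlap most tightened the samples: over these 13 genes the median SD within groups fell from 0.51 to 0.22 on the log2(FPKM + 1) scale, and it was smaller for 11 of them. Genes are therefore given both ways where this matters. With unnamed transcripts added throughout, 14020 genes passed the filter, of which 34.1% were called higher in SCPs and 23.2% higher in RSCs, and 5 of 8 tested cadherins were then called higher in SCPs and 2 higher in RSCs. Genes described next that were below the filter or not called in the main comparison (Cdh6, Cdh24 and, among the protocadherins, Pcdh9, Pcdh10 and Pcdh19) were singled out after their values were seen.

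The type II cadherins, which carry a different adhesive interface, include Cdh6, whose level depends on how transcripts are counted. Cdh6, which encodes K-cadherin, a cadherin of the kidney and of the embryonic neural crest, was listed at 0 in all 3 SCP samples in its named transcript, a model of 3573 bases at chr2:63100723-63246618, and at 2.17, 1.58 and 0 FPKM in RSCs. In each SCP sample, however, 2 unnamed transcripts of 8140 to 8457 bases covered the whole of that locus, from chr2:63096216-63246885 at the widest. With them Cdh6 had 100.7, 98.3 and 85.6 FPKM in SCPs and 2.17, 1.58 and 1.90 FPKM in RSCs. All SCP samples were then far above all RSC samples, the means differed 50.4-fold, and the log2 fold change was -5.06 ± 0.12 (SE; adjusted p = 1.28e-06). Counted this way, Cdh6 had the highest mean of all cadherins in SCPs, 94.8 ± 8.13 FPKM beside 84.4 ± 8.68 FPKM for Cdh2, a gap little above the SD of either.

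Cdh24, a less studied type II cadherin, had 6.93, 3.64 and 0 FPKM in SCPs and 1.37, 0.505 and 1.00 FPKM in RSCs from its named transcripts, and it did not pass the test (adjusted p = 0.445). With unnamed transcripts it had 14.0, 20.2 and 9.82 FPKM in SCPs and 1.37, 1.63 and 1.00 FPKM in RSCs. The groups then lay apart and Cdh24 fell by 2.70 (SE 0.26, adjusted p = 0.000174). Leaving out SCP 3 alone, whose named transcripts were listed at 0, also brought the named value past the threshold (log2 fold change -1.66).

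Cdh19 is a cadherin of the Schwann cell lineage and is often used to mark SCPs and early glia. Its named transcripts had 12.3, 13.9 and 0 FPKM in SCPs and 19.0, 26.8 and 7.35 FPKM in RSCs, groups that overlap and do not pass the test (log2 fold change 1.52 ± 1.14, SE, adjusted p = 0.321). Without SCP 3, the sample listed at 0, Cdh19 had a log2 fold change of 0.25 from named transcripts. With unnamed transcripts it had 21.5, 21.9 and 15.8 FPKM in SCPs and 37.8, 35.0 and 29.7 FPKM in RSCs. All 3 RSC samples were then above all SCP samples, and Cdh19 rose by 0.77 (SE 0.16, adjusted p = 0.00482). This call was lost by a small margin without RSC 1 or without RSC 2, where the log2 fold change was 0.70 and 0.75. Counted this way Cdh19 had the highest mean of all cadherins in RSCs, 34.2 ± 4.13 FPKM.

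Cdh11, the mesenchymal cadherin also known as OB-cadherin, was abundant in both groups. It had 16.3, 24.3 and 16.7 FPKM in SCPs and 11.1, 13.7 and 12.8 FPKM in RSCs. Although every SCP sample was above every RSC sample, the difference of -0.55 ± 0.19 (SE) was not called (adjusted p = 0.0561). The remaining type II cadherins were low. Cdh10, Cdh12 and Cdh20 were above 0 in all SCP samples and listed at 0 in all RSC samples, as was Cdh8, which had 1.59, 0.362 and 0.528 FPKM in SCPs. Cdh10 had 0.636, 1.14 and 0.671 FPKM in SCPs. Cdh22 was at 0 in all SCP samples and between 0.0615 and 0.319 FPKM in RSCs, and Cdh7, Cdh9 and Cdh18 were at 0.362 FPKM or less in every sample.

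Cdh13 encodes T-cadherin, which is held to the membrane by a lipid anchor and lacks the catenin-binding tail. It had 1.67, 2.68 and 3.93 FPKM in SCPs and 14.2, 14.8 and 16.0 FPKM in RSCs. The RSC samples lay close together and all above the SCP samples, and Cdh13 rose 5.45-fold in mean FPKM, with a log2 fold change of 2.14 ± 0.25 (SE; adjusted p = 0.00113). Of the other atypical cadherins, Cdh17, the liver-intestine cadherin, was listed at 0 in all SCP samples and had 0.537, 0.374 and 0.565 FPKM in RSCs. Cdh23, a component of the tip links of hair cells, had 0.502, 0.515 and 0.634 FPKM in SCPs and 0.143, 0 and 0.118 FPKM in RSCs from named transcripts. Cdh16 and Cdh26 were at 0.301 FPKM or less in SCPs and at 0 in all RSC samples. These 4 genes were below the filter. Of the 60 members above 0 in at least 1 sample, 21 had every SCP sample above every RSC sample (35.0%) and 12 the reverse (20%), beside 26.9% and 19.6% of the 20494 symbols above 0.

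The order of the cadherins by level therefore differed between the groups. With unnamed transcripts counted, the SCP means ran Cdh6 (94.8 FPKM), Cdh2 (84.4), Cdh19 (19.7), Cdh11 (19.1), Cdh24 (14.7) and Cdh4 (10.8), and neighbours from Cdh19 to Cdh4 lay within about an SD of each other. The RSC means ran Cdh19 (34.2 FPKM), Cdh13 (15.0), Cdh11 (12.6) and Cdh2 (2.75), each step larger than the SD of the lower gene. All cadherins together summed to 270.2, 274.3 and 224.3 FPKM in SCPs and 73.7, 71.8 and 66.0 FPKM in RSCs this way, and to 153, 151 and 113 FPKM against 54.9, 62.1 and 41.7 FPKM from named transcripts alone.

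**Figure D3:**
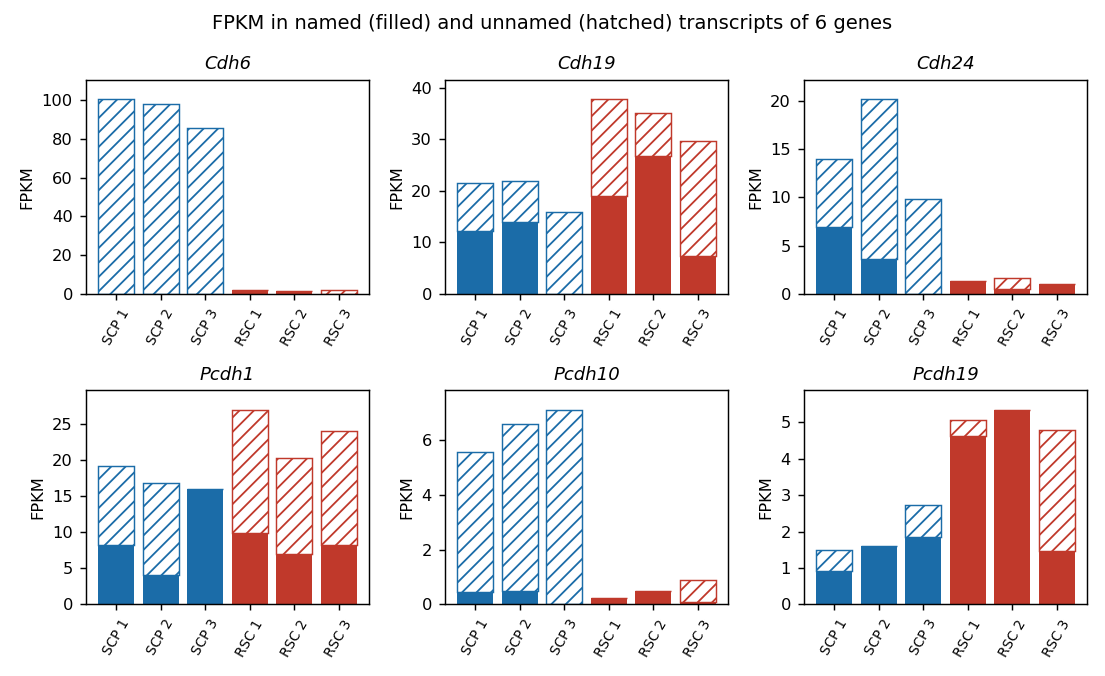
FPKM of 6 genes in each sample, from named transcripts (filled bars) and from unnamed transcripts of the same locus (hatched, stacked on top), SCPs in blue and RSCs in red; each panel has its own y axis from 0. In Cdh6 and Pcdh10 nearly all of the SCP level is hatched, and in Cdh19 the 6 totals are more even within groups than the filled bars.

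Non-clustered protocadherins, most of which are δ-protocadherins, mediate weaker and mostly homophilic contacts and are known from the development of neural circuits. Pcdh18, a δ-2 protocadherin, had 49.8, 51.7 and 46.3 FPKM in SCPs and 2.50, 3.08 and 2.02 FPKM in RSCs. The means differed 19.4-fold with almost no spread between SCP samples, and Pcdh18 fell by 3.84 (SE 0.15, adjusted p = 3.0e-05). Pcdh10, also of the δ-2 group, had at most 0.492 FPKM in any sample from named transcripts. With unnamed transcripts it had 5.58, 6.59 and 7.12 FPKM in SCPs and 0.251, 0.484 and 0.888 FPKM in RSCs, and fell by 2.28 (SE 0.20, adjusted p = 0.000113).

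Pcdh20, a non-clustered protocadherin outside the δ groups, moved the other way. It had 0.241, 0.711 and 0.654 FPKM in SCPs and 5.58, 5.27 and 5.34 FPKM in RSCs. The RSC samples were nearly equal and all above the SCP samples, a 10.1-fold difference in mean FPKM, and the gene rose by 2.07 (SE 0.22, adjusted p = 0.000735). Pcdh19, a δ-2 protocadherin that works with N-cadherin, had 0.908, 1.60 and 1.86 FPKM in SCPs and 4.62, 5.34 and 1.46 FPKM in RSCs from named transcripts, where RSC 3 falls among the SCPs (adjusted p = 0.141). With unnamed transcripts RSC 3 reached 4.78 FPKM beside 5.06 and 5.34 FPKM, the SCPs had 1.50, 1.60 and 2.74 FPKM, and Pcdh19 rose by 1.06 (SE 0.19, adjusted p = 0.00282).

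Of the 4 δ-1 protocadherins 3 were tested, and none of them was called from named transcripts. Pcdh1 had 8.18, 4.13 and 15.9 FPKM in SCPs and 9.86, 6.91 and 8.17 FPKM in RSCs from named transcripts, with an adjusted p of 0.994. With unnamed transcripts it had 19.1, 16.9 and 15.9 FPKM in SCPs and 26.9, 20.3 and 23.9 FPKM in RSCs, and although the groups then lay apart, the gene was not called (adjusted p = 0.0259). Pcdh7 was between 3.43 and 7.11 FPKM in all samples from named transcripts, and between 6.99 and 11.9 FPKM with unnamed ones. It was not called either way (adjusted p = 0.229, and 0.241 with unnamed transcripts). Pcdh9 was called lower in RSCs only with unnamed transcripts, at 4.31, 5.22 and 4.56 FPKM in SCPs and 2.79, 2.75 and 2.87 FPKM in RSCs (log2 fold change -0.58 ± 0.13, SE, adjusted p = 0.00775), and this call was lost on leaving out SCP 2 or any 1 of the RSC samples, and with scaling by the median of ratios (log2 fold change -0.37). Pcdh17, of the δ-2 group, overlapped between groups from named transcripts, at 2.06, 6.53 and 2.68 FPKM in SCPs and 5.11, 4.40 and 2.07 FPKM in RSCs (log2 fold change 0.09, adjusted p = 0.891). With unnamed transcripts it had 7.32, 11.1 and 8.43 FPKM in SCPs and 5.93, 7.52 and 4.82 FPKM in RSCs. The groups still overlapped and Pcdh17 was not called, with the sign turned (log2 fold change -0.49, adjusted p = 0.0717).

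The other non-clustered protocadherins were below the filter. Pcdh11x, the remaining δ-1 member, was listed at 0 in all RSC samples and had 1.07, 1.46 and 0.648 FPKM in SCPs. Pcdh15, a partner of Cdh23 in the tip links, had 0.504, 1.29 and 1.54 FPKM in SCPs and was above 0 in RSC 2 alone. Pcdh8 was between 0.230 and 1.05 FPKM in all samples with overlapping groups, and Pcdh12 had 0, 1.37 and 1.14 FPKM in SCPs and 0.210, 0.143 and 0.354 FPKM in RSCs from named transcripts. With unnamed ones SCP 1 had 1.38 FPKM and the groups lay apart. With unnamed transcripts counted, 4 of 16 tested protocadherins were called higher in SCPs (Pcdh9, Pcdh10, Pcdh18 and Pcdhgc3) and 2 higher in RSCs (Pcdh19 and Pcdh20), both smaller shares than the 34.1% and 23.2% of all genes.

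**Figure D4:**
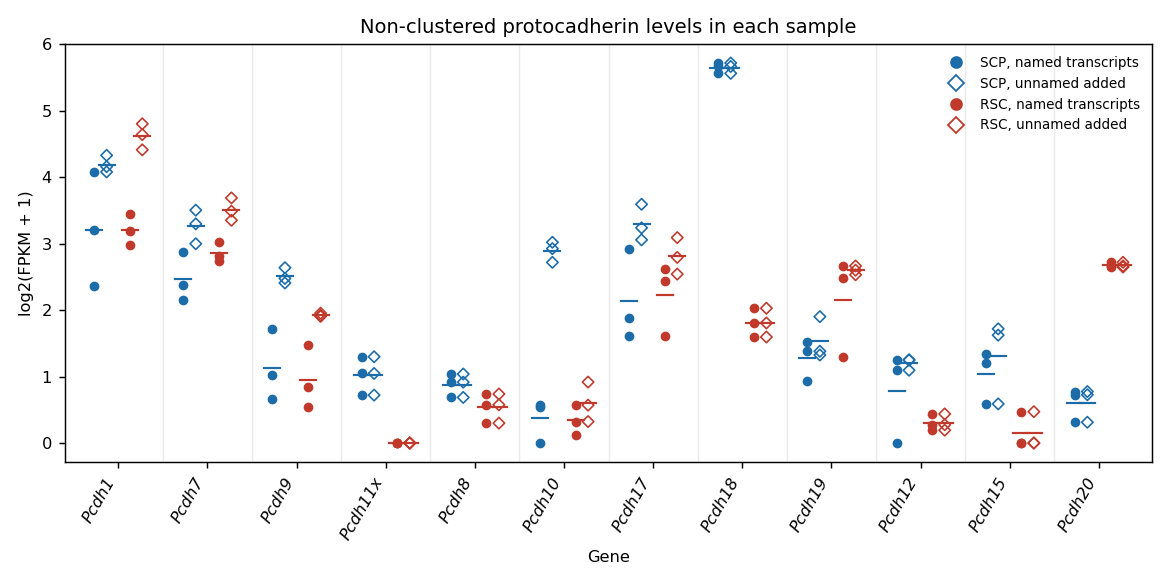
Levels of the 12 non-clustered protocadherins as log2(FPKM + 1) in each of the 3 SCP (blue) and 3 RSC (red) samples, from named transcripts alone (filled circles) and with unnamed transcripts added (open diamonds); short lines are group means. Pcdh18 separates the groups most widely, Pcdh20 is higher in all RSC samples, and Pcdh10 separates them only in the diamonds.

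The clustered protocadherins lie side by side on chromosome 18 (rn6). In the α and γ clusters each variable exon is spliced to constant exons shared by the whole cluster, so reads from the shared exons belong to no single gene. In the γ cluster 12 of 16 transcripts end at the same base, position 30971113, and 11 of these were listed at 0 in all samples, while the remaining gene, Pcdhgc3, had 90.6, 91.7 and 88.5 FPKM in SCPs and 62.6, 61.5 and 56.2 FPKM in RSCs. Pcdhgc3 fell by 0.58 (SE 0.07, adjusted p = 0.0016), or by 0.37 when samples were scaled by the median of ratios. Its value may hold reads of the exons that the γ genes share, since how Cufflinks divided them is not stated. Pcdhgb5, whose listed transcript ends before the shared exons, had 3.15, 2.88 and 3.53 FPKM in SCPs and 1.59, 1.82 and 2.42 FPKM in RSCs, and the difference was not called (adjusted p = 0.0915). Pcdhga4 had 0.627, 0.677 and 0.762 FPKM in SCPs and 0.469, 0.267 and 0.396 FPKM in RSCs, below the filter, with groups that lay apart.

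In the α cluster 12 of 15 transcripts share an end at 30215896, of which 6 were at 0 throughout, and the 2 genes tested, Pcdha4 (0.765, 0.995 and 1.37 FPKM in SCPs and 2.21, 1.78 and 1.42 FPKM in RSCs) and Pcdhac2 (0.485, 0.733 and 1.25 against 1.99, 1.28 and 1.06 FPKM), were not called (adjusted p = 0.17 and 0.265). The other α genes above 0 were Pcdha2, Pcdha3, Pcdha5, Pcdha6 and Pcdha7, each at 0 in at least 3 samples.

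β protocadherins are mostly single-exon genes without shared constant exons, so each keeps its own reads apart from stretches that are alike between neighbours. Their summed level did not separate the groups, at 10.5, 11.7 and 12.4 FPKM in SCPs and 10.9, 13.4 and 11.5 FPKM in RSCs. Within the cluster, however, the direction went with position. All 7 genes from Pcdhb2 to Pcdhb8 (chr18:30375798-30437458) had a lower mean in RSCs, and all 10 genes from Pcdhb9 to Pcdhb22 (chr18:30474947-30595456) had a higher mean in RSCs. Pcdhb1 was listed at 0 in all samples.

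The first 7 genes together had 7.24, 6.92 and 7.05 FPKM in SCPs and 2.84, 3.40 and 2.83 FPKM in RSCs. The other 10 had 3.27, 4.80 and 5.40 FPKM in SCPs and 8.01, 10.0 and 8.67 FPKM in RSCs. The first 7 thus made up 68.9%, 59.0% and 56.6% of the β level in SCPs and 26.2%, 25.3% and 24.6% in RSCs. The boundary was placed after the values were seen, so these sums are a description with no test, and the directions of all 17 genes held when each sample was left out in turn and with scaling by the median of ratios.

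Single β genes were low, at 2.28 FPKM or less in every sample. Pcdhb4 had 2.28, 1.58 and 0.915 FPKM in SCPs and 0.178, 0.325 and 0.345 FPKM in RSCs. Pcdhb6 had 0.706, 0.953 and 1.02 FPKM in SCPs and 0.0825, 0.240 and 0.117 FPKM in RSCs. Among the first 7 genes, these 2 and Pcdhb2, Pcdhb5 and Pcdhb7 had groups that lay apart. At the other end Pcdhb19 had 0.657, 0.715 and 1.16 FPKM in SCPs and 1.30, 1.86 and 1.63 FPKM in RSCs, and Pcdhb22 had 0.487, 0.943 and 0.733 FPKM in SCPs and 1.65, 1.08 and 1.55 FPKM in RSCs. The groups also lay apart for Pcdhb14, Pcdhb17, Pcdhb20 and Pcdhb21. Of 17 β genes above 0, 5 thus lay apart with SCPs higher and 6 with RSCs higher, beside 26.9% and 19.6% of all symbols above 0. None of the 4 β genes above the filter was called by limma (Pcdhb3, Pcdhb5, Pcdhb19 and Pcdhb22, of which none had an unadjusted p under 0.05). Without the filter Pcdhb4 and Pcdhb6 alone were called, 2 of 17 β genes, beside 16.8% of all genes called higher in SCPs this way.

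**Figure D5:**
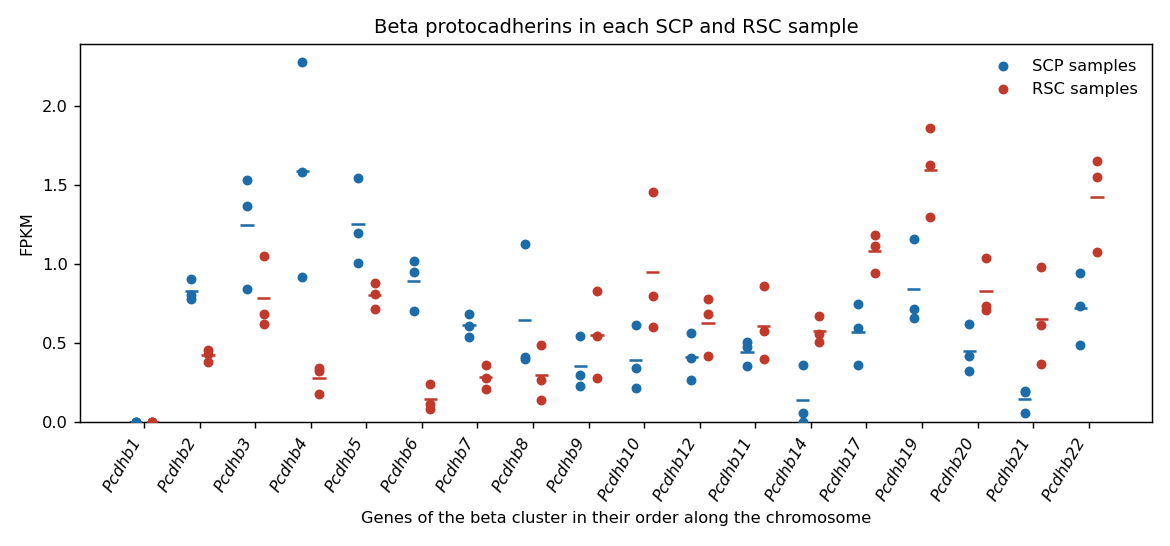
FPKM of the 18 β protocadherins in their order along the chromosome, with a point for each SCP (blue) and RSC (red) sample and a short line for each group mean. Means are higher in SCPs from Pcdhb2 to Pcdhb8 and higher in RSCs from Pcdhb9 to Pcdhb22.

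Promoters of clustered protocadherins carry a conserved sequence known as the CGCT box, to which CTCF binds. In the RefSeq promoter windows (build GRCr8, a later build than rn6), matched by symbol for 53 of the 82 genes, the letters TGGCGCT were searched on both strands of the 250 bases before each start. They were chosen after the β promoters had been read, and contain the shorter CGCT. They were found in 14 of 15 β promoters (93.3%), in 0 of 14 γ promoters, in 0 of 23 promoters of members outside the clusters and in 2.57% of all 33469 promoters. The letters CGCT alone were found in all 15 β promoters and in 11 of 14 γ promoters (78.6%). They also stood in 18 of 23 promoters of members outside the clusters (78.3%) and in 55.1% of all promoters. The stretches below, from genes on either side of the boundary, were chosen because they hold TGGCGCT, shown in capitals. The first 5 belong to genes with all SCP samples higher:
Pcdhb2 (chr18:29279918-29279958): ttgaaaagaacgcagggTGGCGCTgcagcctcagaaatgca
Pcdhb4 (chr18:29292206-29292246): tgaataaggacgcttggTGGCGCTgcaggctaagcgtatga
Pcdhb5 (chr18:29302399-29302439): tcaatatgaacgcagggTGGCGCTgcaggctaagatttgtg
Pcdhb6 (chr18:29320147-29320187): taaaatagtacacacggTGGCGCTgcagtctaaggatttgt
Pcdhb7 (chr18:29328993-29329033): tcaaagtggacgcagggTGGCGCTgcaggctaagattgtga
Pcdhb17 and Pcdhb22 also had all RSC samples higher, but no stretch with these letters was found for them. The other 4 belong to genes with all RSC samples higher:
Pcdhb14 (chr18:29431804-29431844): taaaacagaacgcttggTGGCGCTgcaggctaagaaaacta
Pcdhb19 (chr18:29478759-29478799): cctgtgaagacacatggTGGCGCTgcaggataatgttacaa
Pcdhb20 (chr18:29485805-29485845): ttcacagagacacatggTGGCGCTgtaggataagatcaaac
Pcdhb21 (chr18:29492144-29492184): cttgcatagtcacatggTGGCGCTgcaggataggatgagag
All are on the + strand of GRCr8, 5′ to 3′, and a match is a description of the letters, not a binding site. The capitals are the same in both sets of genes because only stretches that hold them were printed. No difference between the sets was tested.

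Of 12 regulators of the protocadherin clusters (CTCF, cohesin, the repressor REST and factors of chromatin and DNA methylation), 11 were tested, 6 fell in RSCs and none rose, beside the 22.4% of all genes called higher in SCPs. Their median log2 fold change was -0.99, beside -0.17 over all tested genes. Dnmt3a, a de novo DNA methyltransferase, had 21.3, 22.5 and 16.2 FPKM in SCPs and was listed at 2.47, 0 and 1.57 FPKM in RSCs, and fell by 3.33 (SE 0.48, adjusted p = 0.00247). Smc1a, a subunit of cohesin, had 27.6, 40.2 and 29.5 FPKM in SCPs and 9.32, 13.7 and 15.0 FPKM in RSCs, and fell by 1.30 (SE 0.23, adjusted p = 0.00508). Ctcf itself had 10.3, 13.7 and 11.7 FPKM in SCPs and 4.03, 6.72 and 1.59 FPKM in RSCs and missed the threshold (adjusted p = 0.0288). With unnamed transcripts Ctcf had 22.8, 22.0 and 20.1 FPKM in SCPs and 12.1, 13.5 and 14.0 FPKM in RSCs, and fell by 0.68 (SE 0.10, adjusted p = 0.00127). Ctcf was singled out after its values were seen. With unnamed transcripts 9 of 12 tested regulators fell and none rose (median log2 fold change -0.77), beside 34.1% of all genes that fell.

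Catenins and other partners tie cadherins to the cell interior. Of 17 catenins and junction partners 15 were tested, of which 4 fell in RSCs and 1 rose, with a median log2 fold change of -0.80, and 4 of 15 is a share near the 22.4% of all genes that fell, beside 18.1% that rose. With unnamed transcripts 16 were tested, 8 fell and 1 rose (median -0.53), beside 34.1% and 23.2% of all genes tested this way. Ctnnal1, a protein related to α-catenin, had 7.08, 7.71 and 6.82 FPKM in SCPs and 52.5, 52.4 and 53.9 FPKM in RSCs, and rose by 2.72 (SE 0.10, adjusted p = 2.5e-05). Ajuba, a LIM protein recruited to junctions by α-catenin, had 14.6, 13.7 and 6.65 FPKM in SCPs and 2.07, 1.57 and 1.59 FPKM in RSCs, and fell by 2.14 (SE 0.32, adjusted p = 0.00269). Ctnna3, an α-catenin of heart and testis, fell by 1.87 from named transcripts (SE 0.28, adjusted p = 0.00262), with all RSC samples listed at 0, but with unnamed transcripts the RSC samples had 4.18, 5.32 and 4.93 FPKM and the sign turned to 0.66. Its direction thus depends on which transcripts are counted. Ctnna1, the common α-catenin, had 90.2, 101.3 and 94.4 FPKM in SCPs and 102.2, 87.5 and 96.2 FPKM in RSCs (adjusted p = 0.992). Ctnnb1, which encodes β-catenin, missed the threshold from named transcripts (adjusted p = 0.0276), and with unnamed ones had 508.2, 520.2 and 531.6 FPKM in SCPs and 197.3, 189.7 and 190.1 FPKM in RSCs, a fall of 1.43 (SE 0.06, adjusted p = 5.22e-06). Ctnna1 and Ctnnb1 were singled out after their values were seen.

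Of 17 other members of the cadherin superfamily 10 were tested, of which 3 fell and 2 rose (median log2 fold change -0.30), shares near the 22.4% and 18.1% of all genes. With unnamed transcripts 12 were tested, 6 fell and 4 rose (median -0.71), beside 34.1% and 23.2% of all genes. Fat4 and Dchs1 encode a receptor and ligand pair that sets planar polarity and limits growth. Fat4 had 17.1, 22.4 and 16.8 FPKM in SCPs and 1.71, 1.50 and 1.35 FPKM in RSCs, and fell by 2.96 (SE 0.18, adjusted p = 0.000104). Dchs1 had 38.6, 42.7 and 30.4 FPKM in SCPs and 8.02, 12.2 and 11.9 FPKM in RSCs, and fell by 1.72 (SE 0.21, adjusted p = 0.00124). Celsr2, a planar polarity receptor, had 14.7, 15.4 and 15.6 FPKM in SCPs and 49.0, 37.8 and 54.1 FPKM in RSCs, and rose by 1.55 (SE 0.15, adjusted p = 0.000533). Clstn1, a calsyntenin, rose by 3.63 from named transcripts (SE 0.92, adjusted p = 0.02) with SCP 2 and SCP 3 listed at 0, and by 0.83 with unnamed transcripts. The call of Clstn1 from named transcripts was lost when any 1 of SCP 2, SCP 3 and the RSC samples was left out.

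Of 9 proteases and γ-secretase subunits that cut cadherins, all tested, 2 rose and none fell (median log2 fold change 0.38), a share near the 18.1% of all genes that rose. With unnamed transcripts 3 rose (median 0.21), beside 23.2% of all genes. Ncstn, a subunit of γ-secretase, had 26.6, 26.2 and 23.8 FPKM in SCPs and 49.0, 49.0 and 47.9 FPKM in RSCs, and rose by 0.90 (SE 0.09, adjusted p = 0.000495). Adam15, a membrane protease, had 0, 5.75 and 7.55 FPKM in SCPs and 28.1, 39.8 and 36.1 FPKM in RSCs, and rose by 3.19 (SE 0.82, adjusted p = 0.0216). The Adam15 call was lost without SCP 2 or without any of the RSC samples (log2 fold changes of 3.09 to 3.59), and with unnamed transcripts the rise was 2.18. Of 12 repressors of Cdh1 transcription 10 were tested, of which 4 fell and none rose (median log2 fold change -0.96), beside the 22.4% of all genes that fell. With unnamed transcripts 6 fell (median -0.58), beside 34.1% of all genes. Gsc, a homeobox factor, had 8.11, 17.1 and 11.5 FPKM in SCPs and 0, 0.199 and 0.632 FPKM in RSCs, and fell by 3.35 (SE 0.34, adjusted p = 0.000606). Tcf3, an E-box factor, had 89.1, 84.7 and 66.6 FPKM in SCPs and 21.7, 18.8 and 17.7 FPKM in RSCs, and fell by 1.99 (SE 0.14, adjusted p = 0.000194). None of 11 desmosome genes passed the filter, and their summed level was at most 2.87 FPKM in any sample.

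Markers of the Schwann cell lineage and of other cell types differed between the groups as well, and their values below are from named transcripts unless stated. Of 12 Schwann lineage markers 10 were tested, with 6 higher in RSCs and 2 higher in SCPs. Their summed level was 452, 457 and 531 FPKM in SCPs and 2491, 1939 and 2413 FPKM in RSCs, with Ngfr the most abundant. Sox10, the factor that defines the lineage, had 179, 175 and 181 FPKM in SCPs and 149, 143 and 143 FPKM in RSCs. Fabp7, often used to mark SCPs, was at 0 in all but RSC 1.

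The counts of marker genes stand beside 18.1% of all genes called higher in RSCs and 22.4% in SCPs, or 23.2% and 34.1% with unnamed transcripts. Of 8 leukocyte markers, all 7 tested were higher in RSCs, with a summed level of 5.43, 14.3 and 23.7 FPKM in SCPs and 1947, 2229 and 2303 FPKM in RSCs. Lyz2 was the most abundant in RSCs, and Cd3e was at 0 in all SCP samples. Aif1 and Lyz2 had the highest SCP means, 4.03 and 3.98 FPKM, a gap far below the SD of either. With unnamed transcripts Cd68 had the highest SCP mean, 5.07 ± 4.70 FPKM (SD). No leukocyte marker overlapped between the groups. Of 8 fibroblast markers, all tested, 6 were higher in RSCs and 1 in SCPs, with sums of 847, 1076 and 1187 FPKM in SCPs and 5409, 8067 and 6810 FPKM in RSCs. Dcn was the most abundant of them in RSCs and Col3a1 in SCPs. Of 10 endothelial markers, all tested, 2 were higher in RSCs and none in SCPs, with sums of 56.0, 95.3 and 65.6 FPKM in SCPs and 147, 144 and 137 FPKM in RSCs. Cldn5 was the most abundant in RSCs and Tie1 in SCPs, and Cdh5, the endothelial cadherin, had 3.46, 0 and 2.89 FPKM in SCPs and 4.53, 9.86 and 11.3 FPKM in RSCs. With unnamed transcripts the groups overlapped for Cdh5, at 13.9, 20.5 and 14.4 FPKM in SCPs and 17.6, 17.1 and 11.3 FPKM in RSCs, and the endothelial sums were 79.0, 146 and 96.8 FPKM in SCPs and 180, 172 and 158 FPKM in RSCs. Egfl7 then had the highest SCP mean, 17.6 FPKM beside 13.4 FPKM for Tie1. Of 7 mural markers 6 were tested and 1 was higher in RSCs, with sums of 74.5, 252 and 145 FPKM in SCPs and 179, 174 and 115 FPKM in RSCs, led by Acta2. Rgs5, a marker of pericytes, was listed at 0 in all RSC samples from named transcripts, but with unnamed ones it had 4.98, 9.99 and 5.28 FPKM in SCPs and 98.4, 79.9 and 75.3 FPKM in RSCs and rose by 3.51 (SE 0.25, adjusted p = 4.7e-05). All 7 mural markers were then tested, 3 were higher in RSCs and 1 in SCPs, with sums of 78.6, 272 and 162 FPKM in SCPs and 291, 266 and 293 FPKM in RSCs, which overlapped. Most leukocyte and fibroblast markers were called in the same direction as Cdh13 and Pcdh20. So were 6 of 10 tested Schwann lineage markers and 3 of 6 tested epithelial and perineurial markers. The 2 of 10 endothelial markers called are a share near the 18.1% of all genes. The plating step was aimed at macrophages and fibroblasts, whose markers were measured all the same. The part of these cells in the higher RSC levels of Cdh13, Cdh19 and Pcdh20 was not tested.

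Of 10 muscle markers, all tested, 8 were higher in SCPs and 1, Des, in RSCs. Their sums were 53.5, 73.5 and 132 FPKM in SCPs and 33.9, 34.9 and 28.2 FPKM in RSCs, with Des the most abundant in RSCs. Myog had the highest mean in SCPs but led in SCP 3 alone (31.8 FPKM). Myod1 was highest in SCP 1 and Acta1 in SCP 2. In all RSC samples Myod1, Myf5 and Pax7 were at 0. Cdh15, the muscle cadherin, had 4.02, 3.66 and 8.76 FPKM in SCPs and 0.0828, 0.377 and 0.160 FPKM in RSCs. Of 8 cartilage and limb mesenchyme markers 5 were tested and 2 were higher in SCPs, with sums of 105, 132 and 134 FPKM in SCPs and 13.9, 21.3 and 21.0 FPKM in RSCs, led by Col2a1 in SCPs and by Prrx1 in RSCs, and Matn1 was above 0 in SCP 3 alone. Col9a1 was listed at 0 in all RSC samples from named transcripts, but with unnamed ones it had 7.34, 6.95 and 4.64 FPKM in SCPs and 11.99, 15.4 and 13.2 FPKM in RSCs and rose by 1.01 (SE 0.19, adjusted p = 0.00313). With unnamed transcripts 4 of 6 tested genes of this list were higher in SCPs and 1 in RSCs. The sums were then 138, 164 and 167 FPKM in SCPs and 32.5, 43.8 and 36.3 FPKM in RSCs. Col9a1 led in RSCs this way, with a mean of 13.5 FPKM beside 10.4 FPKM for Prrx1. Of 8 neuron markers 5 were tested and 2 were higher in SCPs, 4 with unnamed transcripts, with sums of 53.9, 29.6 and 40.3 FPKM in SCPs and 24.5, 19.2 and 18.8 FPKM in RSCs, led by Tubb3, and Elavl4 and Isl1 were at 0 in all RSC samples. Of 8 epithelial and perineurial markers 6 were tested and 3 were higher in RSCs, with sums of 52.9, 34.1 and 37.6 FPKM in SCPs and 97.1, 97.4 and 84.5 FPKM in RSCs, led by Slc2a1. With unnamed transcripts 3 of 7 tested were higher in RSCs and 1 in SCPs, and Krt5, Krt14 and Krt18 were at 0 in all RSC samples. The part of these cells in the higher SCP levels of Cdh2, Cdh3, Cdh4, Cdh6 and Pcdh18, and in the higher RSC level of Cdh1, was not tested.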

How the data were processed

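The authors sequenced stranded mRNA libraries with paired-end reads and deposited a Cufflinks table of transcripts per sample in FPKM, with the read coverage (signal) of each transcript, on rn6. The submitters' processing notes name FastQC 0.11.2, TopHat2 2.1.0 and Cufflinks 2.2.1. Transcripts with gene names turned into dates, 77 per sample, were left out. FPKM of named transcripts were summed by symbol, and coverage gave relative depth.

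log2(FPKM + 1) values were fitted with limma 3.58.1 (R 4.3.3, two-sided, variance trend) over 13003 genes (mean of 1 FPKM or more), and adjusted p-values follow Benjamini-Hochberg. Thresholds were p under 0.01 and, where stated, a log2 fold change over 2. The study's summary gives 3 sets of cells per group, and the animals behind each set are not given in the sources used here, so p-values measure the spread between these sets. No interval could be given for single values. Paralogs can share reads.

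Unnamed transcripts were added to the symbol of the same locus that they overlap most. The scripts were tested on simulated data. Other alternatives were a pseudocount of 0.1, other filters and scalings, no trend, adjusted p, the highest transcript, zeros left out, a replicate block and each sample left out. After seeing the data, some were combined with unnamed transcripts.

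The members, gene lists and markers were chosen with earlier results of these data known. Named genes had a mean of at least 5 FPKM, passed both thresholds, or were the 2 highest of their class, and of each partner list the 2 largest changes in each direction at p under 0.01. Cdh1, Cdh6, Cdh8, Cdh10, Cdh17, Pcdh11x and β genes other than Pcdhb19 and Pcdhb22 were added after their values were seen. Twist2 stands in both the repressor and the limb list. Some genes of the marker lists are not reported here.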

Additional observations from a re-analysis of the deposited data

How the results depend on the processing

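Depth is unknown in absolute terms, so genes under 1 FPKM carry an error that cannot be stated. No member transcript was marked as a failed estimate, but 3 to 7 of those listed at 0 in each sample were marked as low in data. A listed 0 can also stand where the level lies in unnamed transcripts, as for Cdh6 in SCPs. Scaling by the median of ratios moved the median log2 fold change of all genes from -0.17 to 0.01 and the share of calls higher in RSCs from 44.6% to 55.5% (43.7% after quantile normalization), and turned the sign of no called member. With unnamed transcripts added, the genes called went from 5268 to 8038, the cadherins higher in SCPs from 3 to 5 and in RSCs from 1 to 2, the protocadherins from 2 to 4 and from 1 to 2, and the partner genes from 17 to 29 and from 5 to 8. Ctnna3 reversed to 0.66. Without the filter 6 cadherins were called higher in SCPs and 2 in RSCs, and 5 of 39 protocadherins higher in SCPs, beside 16.8% and 13.4% of all genes in SCPs and RSCs, and with a mean of at least 5 FPKM Pcdh20 was not tested, leaving 0 protocadherins higher in RSCs. Partner genes higher in RSCs numbered 3 with a pseudocount of 0.1 and 3 with adjusted p.

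With each sample left out, protocadherins higher in RSCs ranged from 1 to 2 (2 without RSC 3), partner genes higher in RSCs from 3 to 6 (3 without SCP 2, RSC 1 or RSC 2), and cadherins higher in RSCs with unnamed transcripts from 1 to 2. The replicate block gave 4275 calls in place of 5268 and left 3 and 1 cadherins and 2 and 1 protocadherins called. Same-numbered samples did not deviate together (correlations of 0.04, -0.0049 and 0.03). These values cannot show whether same-numbered preparations were made together, which the sources used here do not say. Under the block the calls of Clstn1 (3.63) and of Pcdh9 with unnamed transcripts (-0.58) were lost, and no other call of a named gene.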
